A study of Mus musculus with 6 samples.

Results

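The genes that bring L-arginine into the cell and divide it between its uses were followed through an RNA-seq comparison of mouse dendritic cells with and without DB2313. The set held 9 of the 54532 genes in the deposited table: the cationic amino acid transporter genes Slc7a1, Slc7a2 and Slc7a7, the arginase genes Arg1 and Arg2, the ornithine decarboxylase gene Odc1, the inducible nitric oxide synthase gene Nos2, and Ass1 and Asl, whose enzymes rebuild arginine from citrulline. They were matched by gene symbol, and all 9 were among the 14174 genes with enough counts to be tested. The set was chosen on a result of these libraries, the lower Arg1 count with DB2313, and because the study dealt with Slc7a7. The comparison of DB2313 with control is therefore given for these 9 genes as a description, with a fitted log2 fold change and its standard error (SE) but no p-value.

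There were 3 control and 3 DB2313 libraries, and the labels named dendritic cell as the cell type of all 6. By the labels all cells were kept in medium with serum and antibiotics, and the groups differed by DB2313, a compound that the study used as an inhibitor of Spi1 (PU.1), a transcription factor of the myeloid lineage. The study itself dealt with macrophages and CD8 T cells. The labels gave no genotype, mouse strain, age, dose or time, and did not say whether the replicates came from separate animals or cultures, so the spread between libraries may be partly technical. In the table the DB2313 libraries carried the name of Spi1 and the control libraries the short form BMDC, and every direction below depends on that reading. Total counts were 16146743 to 19764677 per library, and every pair of replicates differed by more than counting noise, with a chi-square per degree of freedom of 4.77 to 5.28 among the control pairs and 7.43 to 17.7 among the DB2313 pairs. Of 11 dendritic cell markers 8 exceeded 10 CPM (counts scaled to a common library size, after TMM correction for library composition), but Cd209a was below 1 CPM and Xcr1 was near 1 CPM. All 10 macrophage and all 10 neutrophil markers also exceeded 10 CPM, as did 7 of 10 mast cell and basophil and 8 of 9 T cell markers, so transcripts that serve as markers of other cell types were also present. In such bulk RNA a lower share of the cells that express a gene and a lower amount of RNA per cell cannot be told apart.

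L-Arginine can enter leukocytes through the y+ transporters, which carry cationic amino acids by themselves, or through y+L transporters. The y+L transporter encoded by Slc7a7 works as a pair with the heavy chain encoded by Slc3a2 and exchanges cationic for neutral amino acids. Inside the cell, arginase splits arginine into urea and ornithine, the source of polyamines and proline, while nitric oxide synthase oxidises the same arginine to nitric oxide and citrulline. Arginase in the cytosol (Arg1) is a familiar marker of alternatively activated macrophages, and inducible nitric oxide synthase (Nos2) is one of classically activated macrophages.

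Arg1 was far lower with DB2313, whereas Odc1, which acts on the product of arginase, was higher and Slc7a2 was lower. These 3 were the members called changed at an adjusted p under 0.05 over all genes tested: 1 was higher and 2 were lower. Over all tested genes, 10.6% were called, 4.66% as higher and 5.94% as lower. Since the comparison itself was used to choose the set, nothing is read from the 33.3% of members called. The median log2 fold change of the 9 members was -0.23, against 8.2e-04 for all tested genes. The CPM ranges of the groups did not overlap for 5 members (Arg1, Odc1, Slc7a2, Ass1 and Slc7a7), as was the case for 27.4% of all tested genes.

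**Figure D1:**
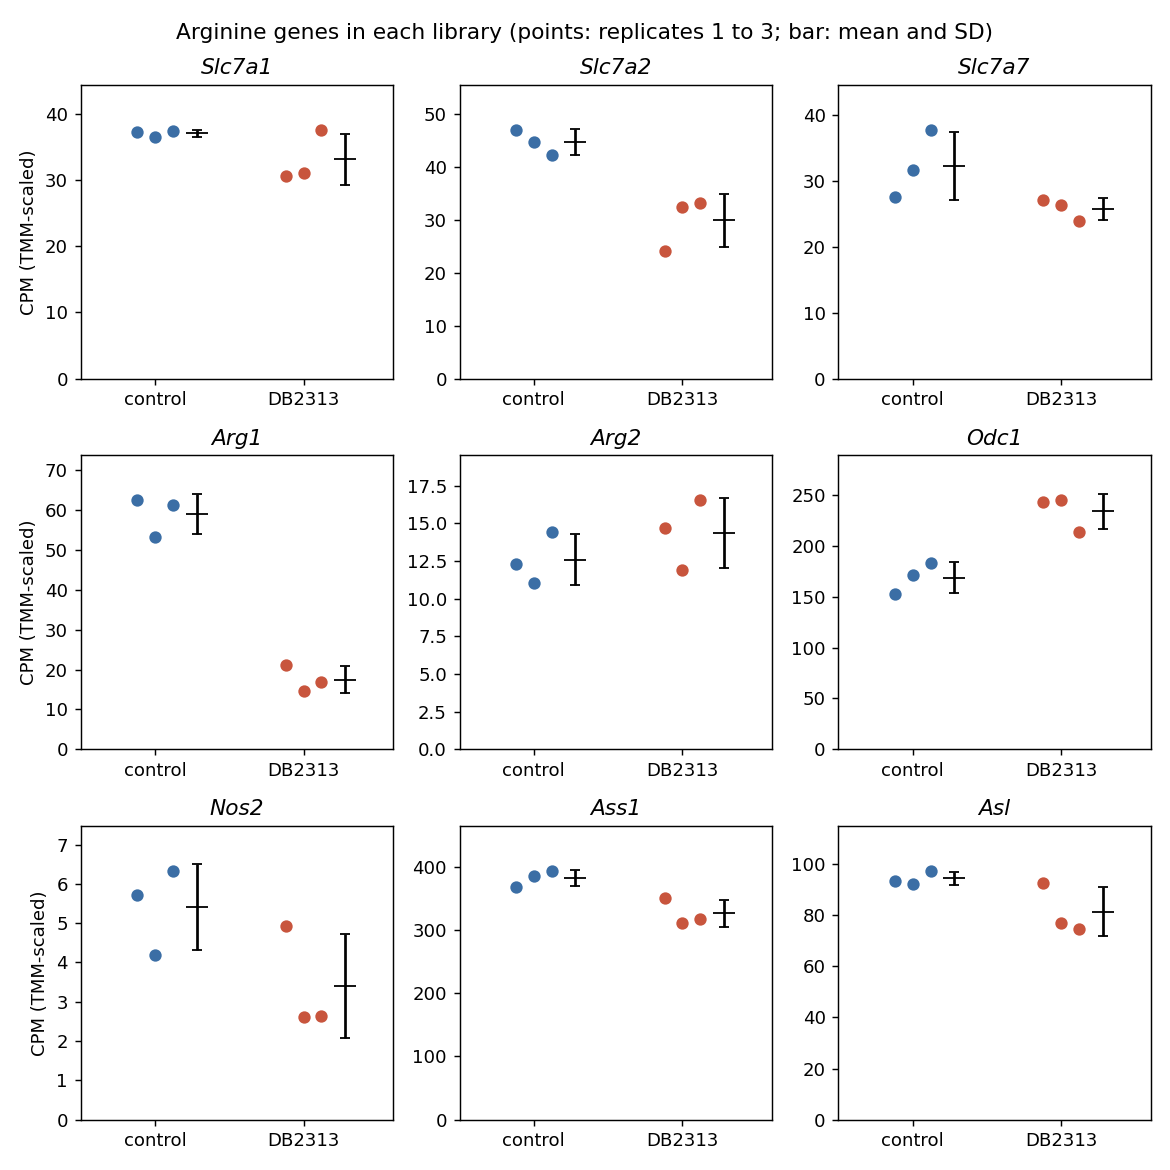
TMM-scaled CPM (vertical axis, from 0, a separate scale for each gene) of the 9 arginine genes in the 3 control and 3 DB2313 libraries. Each point is 1 library and the bar gives the mean and SD; the Arg1 points are at 53.3 to 62.5 CPM in control and at 14.5 to 21.1 CPM with DB2313.

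The arginases were described first. Arg1 (ENSMUSG00000019987, GRCm38 chromosome 10, 24915221 to 24927484, minus strand) encodes the cytosolic enzyme. It had 62.5, 53.3 and 61.3 CPM in control replicates 1 to 3 and 21.1, 14.5 and 16.9 CPM in DB2313 replicates 1 to 3. Every control library was well above every DB2313 library, and the raw counts were 850 to 1017 against 281 to 347. The fitted log2 fold change was -1.76 ± 0.12 (SE), a level 3.39-fold lower with DB2313. Replicates varied by 8.48% (coefficient of variation, CV) in control and 19.04% with DB2313, against medians of 8.40% and 10.8% over all tested genes.

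Arg2 (ENSMUSG00000021125, chromosome 12, 79130777 to 79156301, plus strand) encodes the mitochondrial arginase. It had 12.3, 11.04 and 14.4 CPM in control and 14.7, 11.9 and 16.5 CPM with DB2313, so the groups overlapped. Its log2 fold change was 0.19 ± 0.15 (SE) and it was not called. Arg2 overlaps Vti1b on the opposite strand by 285 bp and also the predicted gene Gm48780, and since the strandedness of the counting was not stated, some reads there could belong to either gene. Per kilobase of gene length, the Arg1 level was 2.73 to 3.26 times that of Arg2 in the control libraries and 0.655 to 0.919 times that of Arg2 in the DB2313 libraries. Arg1 was thus the higher of both in every control library and the lower in every DB2313 library on this scale. In CPM not divided by length, Arg1 was the higher in all 6 libraries.

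Markers of several cell types differed between the groups beside Arg1. Over all tested genes, 4.66% were called higher and 5.94% lower. Of the 10 macrophage markers, 5 were called lower, among them Csf1r, C1qa, C1qb and Cd14, and Fcgr1 was called higher, and their summed level was 9880 to 11202 CPM in control and 8863 to 9737 CPM with DB2313. The dendritic cell markers summed to 9711 to 9951 CPM and 8137 to 9711 CPM, with Itgax and Batf3 called lower and Clec9a called higher. The neutrophil markers summed to 4421 to 4973 CPM in control and 4487 to 5895 CPM with DB2313, with 3 of 10 called higher (Elane, Retnlg and Ly6g). The mast cell and basophil markers summed to 2424 to 2619 CPM and 2453 to 2947 CPM, with Fcer1a called higher and Mcpt4 and Tpsb2 below 1 CPM. The T cell markers summed to 201 to 234 CPM and 200.3 to 306 CPM, and 0 of 9 were called with edgeR, DESeq2 or limma-voom (1 at an unadjusted p under 0.05). Fibroblast markers summed to less than 5 CPM in every library, with Col3a1 and Dcn at 0. The type 2 innate lymphoid markers, another lineage known to express Arg1, summed to 234 to 264 CPM and 233 to 237 CPM, with 0 of 5 tested genes called by any of these tools or at an unadjusted p under 0.05, and with no counts of Il5. The part of these marker values in the Arg1 difference was not tested.

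The genes whose profile across the 6 libraries was most like that of Arg1 were sought among 11103 protein-coding genes, by the root mean square difference of log2 CPM centred on each gene's mean. They were H2-M2 (0.11), of the histocompatibility complex, Lgmn (0.17), which encodes the lysosomal protease legumain, the mitochondrial complex I subunit genes mt-Nd1 (0.17) and mt-Nd2 (0.18), and Rgs1 (0.20), a regulator of G protein signalling. Their log2 fold changes lay between -1.85 for mt-Nd1 and -1.43 for Rgs1 and that of Arg1 was -1.76. These were picked for their likeness, and other mitochondrially encoded genes were looked up after their values were seen. The protein-coding mt-Nd4 (log2 fold change -0.82), mt-Cytb (-0.77), mt-Co1 (-0.52) and mt-Nd5 (-0.36) were also called lower. The value of mt-Nd6 was -0.21 and was not called. The ribosomal RNA genes did not move with them: mt-Rnr1 had a log2 fold change of 0.61 ± 0.08 and mt-Rnr2 one of -0.04 ± 0.08 (SE). The relation of these transcripts to RNA quality or to Arg1 was not tested.

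Odc1 (ENSMUSG00000011179, chromosome 12, 17544794 to 17551505, plus strand) encodes ornithine decarboxylase, the first and rate-limiting enzyme of polyamine synthesis. It had 152.7, 171 and 182.8 CPM in control and 243, 245 and 214 CPM with DB2313, so every DB2313 library was above every control library. The log2 fold change was 0.47 ± 0.08 (SE), or 1.39-fold. The enzyme gene has 7 processed pseudogenes in the annotation with at least 95% identity over at least 100 bp. Their reads made up 1.45% to 2.12% of the sum, and with these added the log2 fold change was 0.47. A further match, the protein-coding gene AW146154 (500 bp at 95.2% identity), had 96 to 176 reads per library and was not added. Per kilobase, the ratio of Arg1 to Odc1 lay between 0.476 and 0.626 in control and between 0.0904 and 0.132 with DB2313.

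None of the 3 enzyme genes of nitric oxide synthesis and arginine recovery was called in the main edgeR fit of all libraries, though other fits, edgeR fits among them, called Ass1. Nos2 (ENSMUSG00000020826, chromosome 11, 78920787 to 78960254, plus strand) had 5.72, 4.20 and 6.33 CPM in control and 4.92, 2.61 and 2.64 CPM with DB2313. DB2313 replicate 1 lay within the control range and the other DB2313 libraries lay below it. The log2 fold change of -0.68 ± 0.28 (SE) was not called, and it rested on 44 to 101 reads per library. Without DB2313 replicate 1 it was -1.04 and was called.

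Ass1 (ENSMUSG00000076441, chromosome 2, 31470207 to 31520672, plus strand) encodes argininosuccinate synthase, which joins citrulline and aspartate. It had 367.7, 384.5 and 393.5 CPM in control and 350.5, 310.5 and 317.6 CPM with DB2313. The groups did not overlap, and the log2 fold change was -0.23 ± 0.07 (SE). It was not called in the main edgeR fit, but it was called in 8 of 18 alternatives. On all libraries these were edgeR with a filter at a mean of 10 counts, robust edgeR, edgeR with a length offset, with or without the replicate block, DESeq2 and limma-voom. The others were the edgeR fits without DB2313 replicate 1 and without DB2313 replicate 3. The call thus depended on the settings within edgeR as well as on the tool. Ass1 shares 1240 bp at 99.5% identity with the processed pseudogene Gm5424, which had 1233 to 1743 reads per library and a log2 fold change of 2.7e-04 ± 0.09 (SE). How the counting divided reads between them is not known. With the reads of Gm5424 added to those of Ass1, of which they made up 16.6% to 22.4%, the log2 fold change was -0.18 ± 0.06 (SE) and was not called.

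Asl (ENSMUSG00000025533, chromosome 5, 130011258 to 130029247, minus strand) encodes argininosuccinate lyase, which releases arginine. It had 93.6, 92.4 and 97.4 CPM in control and 92.4, 76.9 and 74.7 CPM with DB2313, with DB2313 replicate 1 at the level of control replicate 2. The log2 fold change of -0.22 ± 0.09 (SE) was not called, and without DB2313 replicate 1 it was -0.32 and was called. The ratio of Ass1 to Asl per kilobase was 7.86 to 8.33 in control and 7.59 to 8.50 with DB2313, so the balance of both recovery genes overlapped between the groups.

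Among the transporters, Slc7a2 (ENSMUSG00000031596, chromosome 8, 40862396 to 40922308, plus strand), which encodes the cationic transporter CAT2, was the one called lower. It had 47.04, 44.8 and 42.2 CPM in control and 24.1, 32.4 and 33.1 CPM with DB2313. The groups were apart, and DB2313 replicate 1 was the lowest. The log2 fold change was -0.58 ± 0.11 (SE), or 1.49-fold lower. Stretches of at least 100 bp in Slc7a2 transcripts were at least 95% identical to 58 other genes, of which the longest, 475 bp, was shared with the overlapping lincRNA Gm26584 (at most 3 reads per library), so a part of its reads is uncertain. Slc7a1 (ENSMUSG00000041313, chromosome 5, 148327410 to 148399904, minus strand) encodes the more widely expressed transporter CAT1. It had 37.3, 36.4 and 37.3 CPM in control and 30.6, 31.1 and 37.6 CPM with DB2313, and DB2313 replicate 3 lay above all control libraries. Its log2 fold change was -0.16 ± 0.10 (SE) and it was not called. Per kilobase, the ratio of Slc7a2 to Slc7a1 was 1.43 to 1.59 in control and 0.994 to 1.32 with DB2313.

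Slc7a7 (ENSMUSG00000000958, chromosome 14, 54369442 to 54417780, minus strand) was the transporter that the study examined in CD8 T cells, which are not the cells measured here. It had 27.5, 31.6 and 37.7 CPM in control and 27.1, 26.3 and 23.9 CPM with DB2313. The ranges did not overlap, but they were separated by less than 1 CPM, between control replicate 1 and DB2313 replicate 1. The log2 fold change of -0.32 ± 0.12 (SE) was not called. It overlaps Oxa1l on the opposite strand by 232 bp, and Oxa1l itself was at -0.04 ± 0.08 (log2 fold change ± SE). Its partner gene Slc3a2 had 240 to 264.6 CPM in control and 221.8 to 236 CPM with DB2313, and its log2 fold change of -0.13 ± 0.07 (SE) did not pass (edgeR adjusted p = 0.288).

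**Figure D2:**
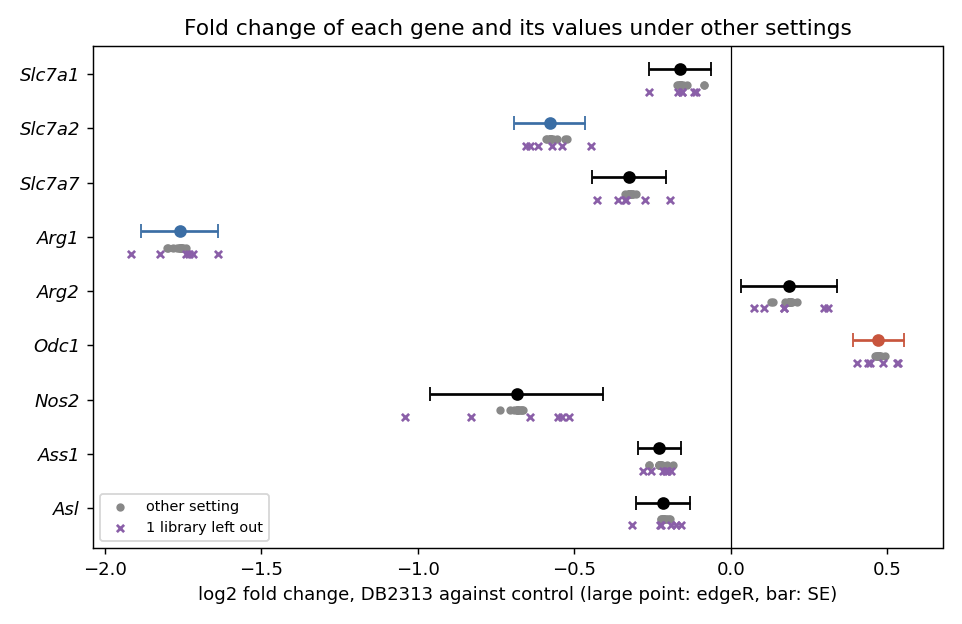
Log2 fold change of DB2313 against control (horizontal axis) for each member, with the edgeR value as a large point and its SE as a bar. Blue and red mark the members called lower and higher, black those not called; small grey points are 12 other settings and purple crosses the 6 fits without 1 library, and for every member all of them stay on its side of 0.

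Because DB2313 is directed at a DNA-binding protein, the start regions of the members were read from RefSeq (GRCm38.p6), from 250 bases before to 50 bases after each start. The sequences held 9 windows of 4 members, Ass1, Odc1, Slc7a1 and Slc7a7, of which 5 windows were of Slc7a7. Arg1 and Slc7a2, the members called lower, had no window, so the counts below do not cover them. The PU.1 motif GAGGAAGT was in 0 of the 9 windows, on either strand, and in 3.20% of 32851 mouse windows of this length. Its first 6 letters, GAGGAA, a looser match contained in the former, was in 3 of the 9 windows, all of Slc7a7, and in 28.3% of all windows. Of these 3 windows 2 overlap and hold the same site, so they are not separate matches. The C/EBP motif TTGCNNAA was in 1 of the 9 windows, of Slc7a7, and in 10.8% of all windows. The windows of Odc1, which was called higher and held none of the 3 motifs, and of 2 of the 5 Slc7a7 starts are shown on the strand of the gene, with GAGGAA or its reverse complement in capitals. For the first Slc7a7 window the match begins 20 bases before the start, and for the second the matches begin 85 bases before and 14 bases after it. A match of letters is a description of the sequence, not a bound site.

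Odc1, chr12:17544623-17544922, plus strand: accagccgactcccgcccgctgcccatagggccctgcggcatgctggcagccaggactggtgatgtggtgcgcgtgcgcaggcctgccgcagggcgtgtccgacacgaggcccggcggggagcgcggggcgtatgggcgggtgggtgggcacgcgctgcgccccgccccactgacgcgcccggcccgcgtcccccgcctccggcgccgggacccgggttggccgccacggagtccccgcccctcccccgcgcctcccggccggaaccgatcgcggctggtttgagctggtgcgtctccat

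Slc7a7, chr14:54417630-54417929, minus strand: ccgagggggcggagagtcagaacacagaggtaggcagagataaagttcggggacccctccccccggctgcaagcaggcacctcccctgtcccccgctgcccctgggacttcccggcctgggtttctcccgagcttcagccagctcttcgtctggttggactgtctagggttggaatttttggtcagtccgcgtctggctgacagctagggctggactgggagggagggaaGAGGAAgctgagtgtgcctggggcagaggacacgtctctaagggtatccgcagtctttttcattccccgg

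Slc7a7, chr14:54410154-54410453, minus strand: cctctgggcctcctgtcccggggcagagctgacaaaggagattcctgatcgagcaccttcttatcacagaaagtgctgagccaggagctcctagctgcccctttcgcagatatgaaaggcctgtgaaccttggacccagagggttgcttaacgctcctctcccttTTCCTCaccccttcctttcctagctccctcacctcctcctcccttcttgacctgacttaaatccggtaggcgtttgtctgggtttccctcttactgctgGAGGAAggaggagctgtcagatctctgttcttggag

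The members differed widely in level. Compared per kilobase of the deposited gene length, in CPM per kilobase, Ass1 was the highest in control at 158 ± 5.44 (SD, n = 3), followed by Odc1 at 49.6 ± 4.46, Arg1 at 26.5 ± 2.25 and Asl at 19.6 ± 0.542. Slc7a7 at 9.73 ± 1.55 and Arg2 at 8.81 ± 1.20 overlapped in control and were not distinct in order. Slc7a2 at 4.89 ± 0.264, Slc7a1 at 3.21 ± 0.0424 and Nos2 at 1.23 ± 0.249 followed without overlap. With DB2313 the order was Ass1, Odc1, Asl, Arg2, Arg1, Slc7a7, Slc7a2, Slc7a1 and Nos2. Arg1 moved from place 3 to place 5, to 7.85 ± 1.49, where it overlapped both Arg2 at 10.06 ± 1.64 and Slc7a7 at 7.76 ± 0.507. Slc7a2 and Slc7a1, distinct in control, overlapped with DB2313. As shares of the summed level of the 9 members, Arg1 went from a mean of 9.42% to 3.08%. Odc1 went from 17.6% to 27.2% and Ass1 from 56.2% to 53.3%. The order used gene length, and only 3 of the 9 members kept their place in control when CPM was not divided by length.

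**Figure D3:**
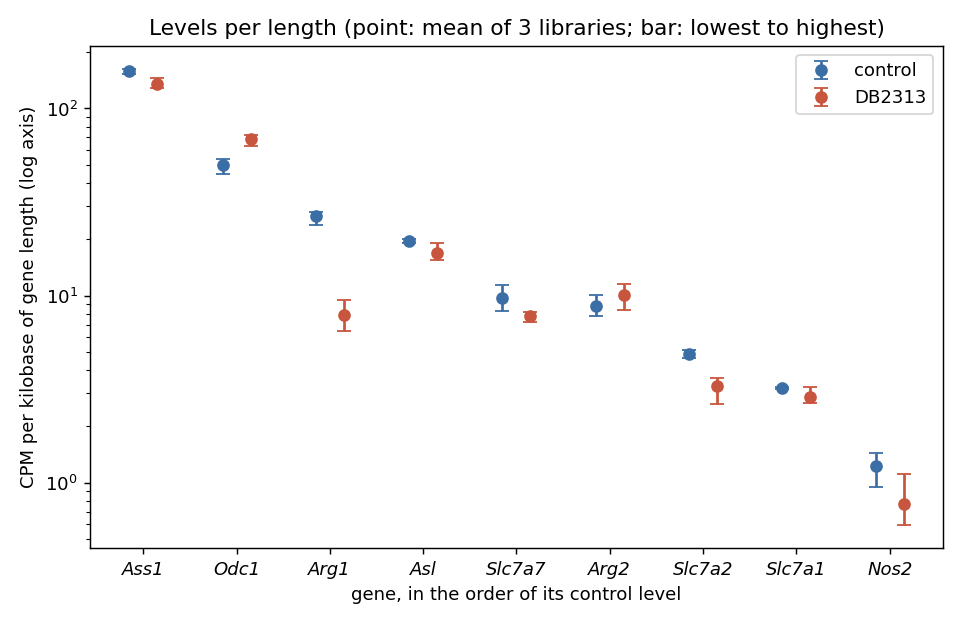
CPM per kilobase of gene length (vertical axis, log scale) of the 9 members in the order of their control level, for control and DB2313. Points are means of 3 libraries and bars reach from the lowest to the highest library; Arg1 goes from 26.5 to 7.85 CPM per kilobase and crosses the levels of Asl and Arg2.

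Other genes of the arginine pathways were taken from 7 lists written from general knowledge, but with earlier results of these data known. The share called is therefore a description. Of their 72 gene names, synonyms included, 69 were in the deposited table and 56 were tested. Of those tested, 6 were called higher and 6 lower, or 21.4%, beside 10.6% of all tested genes. Their median log2 fold change was 0.0035. The tested gene with the largest log2 fold change in size was Gch1, which encodes GTP cyclohydrolase, the first enzyme in the synthesis of tetrahydrobiopterin, the cofactor of nitric oxide synthase.

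Gch1 had 20.9, 23.1 and 23.4 CPM in control and 8.08, 7.62 and 9.07 CPM with DB2313. Its log2 fold change was -1.45 ± 0.13 (SE, edgeR adjusted p = 4.7e-06), and the groups were far apart, with the call kept in all 18 alternatives. It was the only call among the 11 tested genes of nitric oxide cofactors and inhibitors, or 9.09%, beside 10.6% of all tested genes. The most abundant of those not called were Spr, of the same cofactor pathway (-0.27 ± 0.10), Prmt1, an arginine methyltransferase (0.07 ± 0.08, edgeR adjusted p = 0.683), and Nostrin (0.10 ± 0.10, 0.587, log2 fold change ± SE). Nos1 and Nos3 were too low to be tested.

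In the polyamine list, which follows Odc1, 3 of 15 tested genes were called higher and 1 lower, or 26.7%, beside 10.6% of all tested genes. The median log2 fold change of the list was 0.0077. Sat1, which encodes the acetyltransferase that starts polyamine breakdown and export, rose from 343.6 ± 15.8 to 471.7 ± 33.2 CPM (SD, n = 3 each), a log2 fold change of 0.46 ± 0.07 (SE, edgeR adjusted p = 8.0e-04). Spermine synthase, Sms, rose by 0.37 ± 0.09, and spermine oxidase, Smox, which runs the reverse way, by 0.25 ± 0.08 (log2 ± SE; edgeR adjusted p = 0.0200 and 0.0477). Azin2, an inhibitor of antizyme, fell by 0.50 ± 0.13 on the log2 scale (SE, edgeR adjusted p = 0.0196). The most abundant genes that did not pass were Eif5a, which carries the polyamine-derived hypusine (0.03 ± 0.09, edgeR adjusted p = 0.871), Oaz1, the antizyme that targets ornithine decarboxylase for breakdown (0.0077 ± 0.10, 0.977), and Atp13a2 (0.06 ± 0.07, 0.716, log2 fold change ± SE). Only the Sat1 call held in all 6 fits without 1 library. Those of Sms, Smox and Azin2 were lost without any 1 of the control libraries and without DB2313 replicate 2, and that of Smox also without DB2313 replicate 1, with log2 fold changes over the 6 fits of 0.33 to 0.39, 0.22 to 0.28 and -0.69 to -0.41 and edgeR adjusted p of up to 0.124, 0.211 and 0.130. With all libraries, the Sms and Smox calls were also lost with the replicate block, and that of Smox with no filter.

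In the proline and ornithine list, which had 9 tested genes, Oat, the ornithine aminotransferase, was at 113 to 114 CPM in every control library and at 97.5 to 98.6 CPM in every DB2313 library, yet its log2 fold change of -0.21 ± 0.07 (SE) did not pass (edgeR adjusted p = 0.0615). The median of this list was -0.11. The urea cycle and mitochondrial carrier list had 0 of 4 tested genes called with edgeR, DESeq2 or limma-voom, beside 10.6% of all tested genes. In it 0 were at an unadjusted p under 0.05, its median log2 fold change was -0.10, and nothing is read from so few genes. In this list Cps1, Otc and Nags, genes tied to the urea cycle in liver, were at or below 0.690 CPM in every library.

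In the creatine list, which starts from arginine and glycine, 4 of 5 tested genes were called, 2 in each direction. That was 80%, beside 10.6% of all tested genes. Gatm, the enzyme that uses arginine, fell by 0.39 ± 0.10 on the log2 scale, and the creatine transporter Slc6a8 fell by 0.86 ± 0.13 (SE; edgeR adjusted p = 0.0185 and 7.3e-04). Gamt, the methyltransferase of the next step, rose by 0.77 ± 0.22, and the creatine kinase gene Ckb rose by 0.67 ± 0.09 (log2 ± SE; edgeR adjusted p = 0.0339 and 2.0e-04). The list thus moved both ways, with a median of 0.23. The calls of Slc6a8 and Ckb held in every fit without 1 library. That of Gatm was lost without control replicate 1 and without DB2313 replicate 2, and that of Gamt without any 1 of the control libraries, without DB2313 replicate 2 and, on all libraries, with limma-voom. Over these fits their log2 fold changes were -0.43 to -0.31 and 0.60 to 0.98, with edgeR adjusted p of up to 0.112 and 0.198.

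Castor1, which encodes the cytosolic arginine sensor of the mTORC1 pathway, and its paralogue Castor2 were both lower. Castor2 fell from 185.5 ± 12.2 to 145.8 ± 4.09 CPM and Castor1 from 35.5 ± 1.20 to 25.9 ± 4.14 CPM (SD, n = 3 each), with log2 fold changes of -0.35 ± 0.07 and -0.45 ± 0.11 (SE; edgeR adjusted p = 0.00576 and 0.0190). The Castor1 call was lost without any 1 of the control libraries and the Castor2 call without control replicate 2 or DB2313 replicate 2, with log2 fold changes over the fits without 1 library of -0.52 to -0.33 and -0.40 to -0.30 and edgeR adjusted p of up to 0.0871 and 0.0603. The other 5 tested genes of this list, among them the deiminase genes Padi2 and Padi4 and the arginyl-tRNA synthetase gene Rars, were not called (median of the list -0.0038). The share called in this list was 28.6%, beside 10.6% of all tested genes. The list of other transporters had 0 of 5 tested genes called with edgeR, DESeq2 or limma-voom, from which nothing is read for so few genes. It had 0 at an unadjusted p under 0.05 and a median of 0.04. Besides Slc3a2 it held Slc38a9, the lysosomal arginine sensor (0.13 ± 0.13, edgeR adjusted p = 0.600), and Slc7a6, a y+L transporter like Slc7a7 (-0.05 ± 0.11, 0.824, log2 fold change ± SE).

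The activation states that Arg1 and Nos2 commonly mark were described last. Of 13 tested genes of alternative activation, 2 were called higher and 5 lower, or 53.8%, beside 10.6% of all tested genes. Their median log2 fold change was -0.23. Both activation lists were written with earlier results of these data known, so the shares called are a description. Mrc1, the mannose receptor (-0.71 ± 0.14), Retnla, a secreted resistin-like protein (-0.67 ± 0.10), Egr2, a transcription factor (-0.67 ± 0.12), and Pdcd1lg2, an inhibitory ligand of T cells (-0.84 ± 0.12, log2 fold change ± SE), fell with edgeR adjusted p from 2.9e-04 to 0.00325. Il4ra, a chain of the interleukin-4 receptor, fell by 0.23 ± 0.07 on the log2 scale (SE, edgeR adjusted p = 0.0401). The lectin Clec10a rose from 19.9 ± 1.15 to 57.7 ± 2.72 CPM (SD, n = 3 each; log2 fold change 1.53 ± 0.09, SE, edgeR adjusted p = 1.2e-07), and Ptgs1 rose by 0.25 ± 0.07 (log2 ± SE, edgeR adjusted p = 0.0398). The calls of Il4ra and Ptgs1 were lost without any 1 of the control libraries and without DB2313 replicate 2, with log2 fold changes of -0.25 to -0.18 and 0.21 to 0.29 over the fits without 1 library and edgeR adjusted p of up to 0.236 and 0.187. With all libraries, the Il4ra call was also lost with library totals as the scaling, with no filter and with the replicate block, so that it held in 10 of 18 alternatives, and the Ptgs1 call with the replicate block. Chil3, a chitinase-like protein gene, was not called, with a mean of 3746 ± 212.6 CPM in control against 4003 ± 309 CPM in the DB2313 group (SD, n = 3 each).

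Of 13 tested genes of classical activation, 0 were called higher and 3 lower with edgeR, DESeq2 and limma-voom alike (1 higher and 4 lower at an unadjusted p under 0.05), with a median of -0.15. The edgeR calls were 23.1% of the list, beside 10.6% of all tested genes. Il12b, a subunit of interleukin-12, fell by 1.02 ± 0.12, Acod1, which makes itaconate, by 0.70 ± 0.08, and Il1b by 0.68 ± 0.13 on the log2 scale (SE), with edgeR adjusted p from 3.0e-05 to 0.00310. Ccl5, Cd86 and Fpr2, the most abundant genes that did not pass, had log2 fold changes of 0.04, 0.09 and -0.06. Of the macrophage markers, 5 of 10 were called lower in the same libraries, beside 5.94% of all tested genes. The part of these markers in the lists was not tested.

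**Figure D4:**
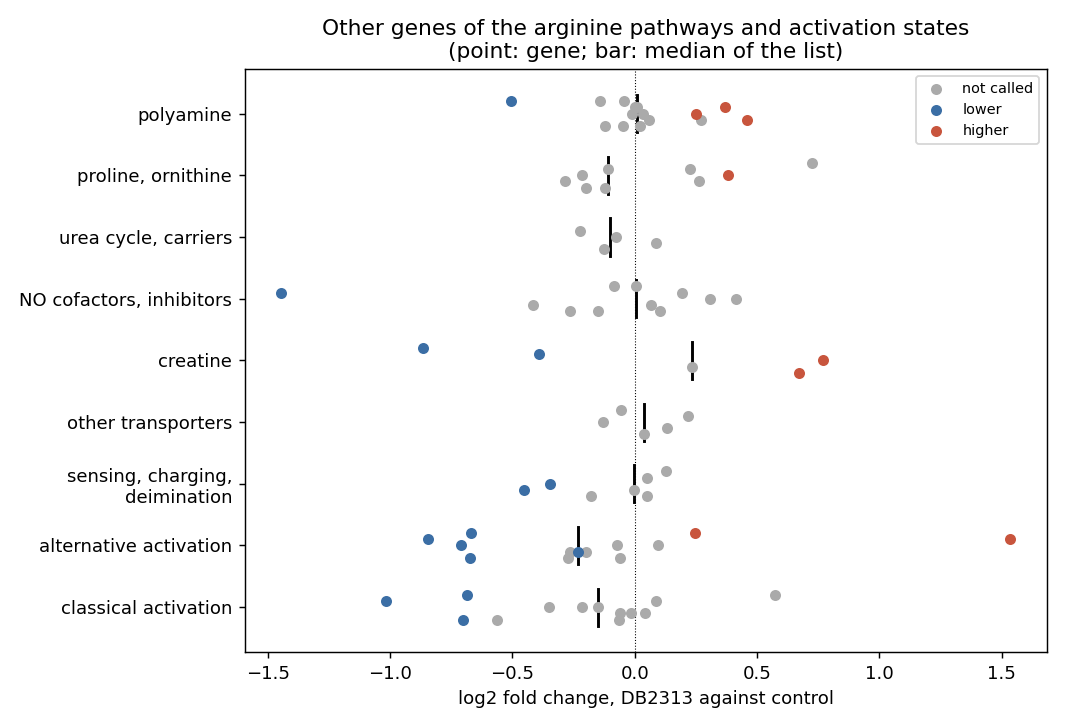
Log2 fold change of DB2313 against control (horizontal axis) of each tested gene in 7 arginine lists and 2 activation lists (rows), with called genes in blue (lower) and red (higher), genes not called in grey, and a black bar at the median of each list. Gch1 stands alone at -1.45 in the nitric oxide row, and Clec10a at 1.53 in the alternative activation row.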

How the data were processed

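RNA-seq read counts per gene were analysed for 3 control and 3 DB2313 libraries. The authors deposited raw counts in 1 table together with gene lengths (bp), with no normalisation and no pooling. The methods of the study, written for macrophages and CD8 T cells, named LifeScope for alignment and counting, whereas the submitters' processing notes listed CASAVA 1.8, HISAT2 2.0.5 and featureCounts 1.5.0-p3, and it is not known which made the table. Strandedness and the treatment of reads with several matches are not given in the sources used here, nor is the build. Of 54495 identifiers shared with GENCODE M21 (GRCm38), 98.33% had the same start and end there, the 9 members included.

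All genes entered 1 quasi-likelihood fit (edgeR 4.0.16, R 4.3.3) with TMM scaling, filterByExpr and group as the only term, with Benjamini-Hochberg adjustment over the 14174 genes tested and a threshold of 0.05. The study used DESeq2, run here as an alternative (1.42.0), as was limma-voom (3.58.1). The fit was checked on simulated data. Copies were searched with blastn 2.17.0 among GENCODE M21 transcripts. Named were the 9 members, up to 6 called and 3 uncalled genes of each list, and the 5 genes nearest to Arg1 in profile with a mean log2 CPM of at least 1. Il4ra, a further call of a list with 7, was named after its value was seen, as were the genes named with the markers and copies. Some genes of the lists are not reported here. The members and lists were chosen with earlier results of these data known. Same-numbered libraries were not treated as pairs, given correlations of the deviations of same-numbered libraries of 0.0041, -0.024 and -0.11. Alternatives were other scalings, filters, tests and prior counts, a gene-length offset by lowess, a block for replicate number, and the omission of each library.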

Additional observations from a re-analysis of the deposited data

How the results depend on the processing

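All 9 members kept the sign of their log2 fold change in the 18 alternatives, of which 1, the addition of pseudogene reads to Ass1 and Odc1, was chosen after the data were seen. Arg1 (from -1.91 to -1.64), Slc7a2 (from -0.65 to -0.45) and Odc1 (from 0.40 to 0.53) were called in all 18, and Arg2, Slc7a1 and Slc7a7 in none. Ass1 was called in 8, Nos2 and Asl only without DB2313 replicate 1. Over the 6 fits without 1 library, the members called lower ranged from 2 to 5, the highest without DB2313 replicate 1. The genes called higher ranged from 328 (without DB2313 replicate 2) to 1097 (without DB2313 replicate 3) and those called lower from 411 to 1311 in the same fits. Fits without 1 control library gave 360 to 383 genes higher and 436 to 485 lower. The pathway genes called higher, 8 with all libraries, ranged from 3, without DB2313 replicate 2, to 10, without DB2313 replicate 3, and were 5 with the replicate block. The cause was not tested. The block changed no call of a member, and the labels do not say that a number marks a shared culture. Of the 9 members, only 3 kept their place in the order of levels when CPM was not divided by length. Depth limits Nos2 most, at 44 to 101 reads per library.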
